A study of Mus musculus with 11 samples.

Results

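The 10 genes described here encode the enzymes that make serine from a glycolytic intermediate and those that move its one-carbon unit onto folate, taken as a list of symbols and matched by gene identifier to 10 of the 53801 genes in each expression table. They were Phgdh, Psat1 and Psph of serine synthesis, the serine hydroxymethyltransferases Shmt1 and Shmt2, the folate enzymes Mthfd1, Mthfd1l, Mthfd2 and Mthfd2l, and the mitochondrial formyl-folate dehydrogenase Aldh1l2. Neural stem cells (NSCs) isolated from the hippocampus of mouse embryos received 1 µM 4HBP, or the vehicle EtOH as control, over 7 days of culture. In proliferation medium, which held the growth factors EGF and bFGF, there were 3 libraries with 4HBP and 3 controls, and in differentiation medium, which lacked both factors and held more B27 supplement, 3 and 2. The study's animals were C57BL/6 mice, no genetic modification was named for any group, and all cells grew in culture. The sample labels named the compound 4-hydroxybenzoic acid and the study 4-hydroxybenzophenone, so the groups are called 4HBP here. The labels did not say whether replicates came from separate cultures, so p-values measured the spread between these libraries, which may be technical.

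Serine is built from 3-phosphoglycerate by PHGDH, PSAT1 and PSPH in turn, and serine hydroxymethyltransferase then splits it into glycine and a one-carbon unit carried by tetrahydrofolate. The folate reactions run in parallel in the cytosol (SHMT1, MTHFD1) and the mitochondria (SHMT2, MTHFD2 or MTHFD2L, MTHFD1L, ALDH1L2), and formate carries the unit between the compartments for the synthesis of purines and thymidylate. Several of these genes are known targets of ATF4, the transcription factor of the integrated stress response, and serine synthesis in the brain is a known function of radial glia and astrocytes.

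The promoters of 4 of the 6 members that differed between 4HBP and control cultures in proliferation medium are shown. Several of these genes are known ATF4 targets, and the windows can be searched for shared motifs. The windows are RefSeq sequences of the GRCm38.p6 build, on the minus strand, from 250 bases before to 50 bases after the annotated start. They lie at chr3:98339920-98340219 for Phgdh, chr19:15925010-15925309 for Psat1 (the start listed first of its 2), chr5:129787204-129787503 for Psph and chr10:127522395-127522694 for Shmt2. Capitals mark the letters CCAAT on either strand in Phgdh, Psat1 and Psph, and the motif of the factor NRF1 in Shmt2.
Phgdh: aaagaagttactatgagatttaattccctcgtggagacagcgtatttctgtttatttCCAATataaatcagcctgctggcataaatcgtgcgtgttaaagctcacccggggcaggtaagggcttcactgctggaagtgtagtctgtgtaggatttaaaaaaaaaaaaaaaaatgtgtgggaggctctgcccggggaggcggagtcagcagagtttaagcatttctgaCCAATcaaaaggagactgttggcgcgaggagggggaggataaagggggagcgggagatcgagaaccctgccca
Psat1: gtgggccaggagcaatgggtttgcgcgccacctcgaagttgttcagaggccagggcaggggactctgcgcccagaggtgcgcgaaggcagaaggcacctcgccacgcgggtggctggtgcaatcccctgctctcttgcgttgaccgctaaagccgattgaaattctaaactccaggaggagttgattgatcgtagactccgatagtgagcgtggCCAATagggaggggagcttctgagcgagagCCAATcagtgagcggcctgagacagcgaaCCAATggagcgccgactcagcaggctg
Psph: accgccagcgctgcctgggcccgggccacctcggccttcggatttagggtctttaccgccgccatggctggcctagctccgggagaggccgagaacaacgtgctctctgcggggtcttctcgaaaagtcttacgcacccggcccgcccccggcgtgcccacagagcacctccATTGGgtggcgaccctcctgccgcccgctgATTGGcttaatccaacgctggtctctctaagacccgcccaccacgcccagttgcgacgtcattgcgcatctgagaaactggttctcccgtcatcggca
Shmt2: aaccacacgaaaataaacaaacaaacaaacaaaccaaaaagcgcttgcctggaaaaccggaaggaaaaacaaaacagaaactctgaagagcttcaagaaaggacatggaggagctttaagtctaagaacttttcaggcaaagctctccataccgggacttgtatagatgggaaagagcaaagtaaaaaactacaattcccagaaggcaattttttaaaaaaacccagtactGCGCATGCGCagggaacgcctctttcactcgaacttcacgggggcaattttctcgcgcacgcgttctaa
Windows were listed for 9 members, and Aldh1l2 had none. All motifs were searched on both strands, and none of them contains another. The letters CCAAT stood in a window of 6 members (Mthfd1, Mthfd2, Phgdh, Psat1, Psph and Shmt1) and in 37.4% of all 32851 windows of the same length. Among these, Mthfd1, Mthfd2 and Shmt1 did not pass the test of 4HBP against control in either medium. Mthfd1l passed it in proliferation medium, and its window, not printed here, held none of the motifs searched. The NRF1 motif, GCGCA followed directly by its reverse complement and so the same on both strands, stood in the Shmt2 window and in 0.971% of all. The amino acid response motif TGATGNAA, which ATF4 is known to bind, stood in no member window (0 of 9 members, against 3.97% of all windows). The letters CACGTG, an E-box, were likewise in no member window (7.15% of all), and TTTCGCGC or TTTGGCGC, the letters bound by E2F factors, in none (0.813%). These counts describe the letters of the windows, and sequence beyond them was not searched.

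Libraries held 20822921 to 23438463 expected counts, so that 3 counts correspond to 0.128 to 0.144 CPM (counts scaled to each library's total). All 10 members passed the filter on low counts in every comparison, with 76 to 10126 counts per gene and library. The NSC markers Nes, Sox2, Sox9, Fabp7, Vim, Pax6, Hes5 and Msi1 were all at 1 or more TPM (transcript abundance scaled by length and depth) in each group and summed to 4351 to 5031 TPM in proliferation libraries and 2507 to 2625 TPM in differentiation libraries. Astrocyte markers (2559 to 4021 TPM against 4898 to 5334 TPM) and oligodendrocyte lineage markers (1455 to 2643 TPM against 6371 to 6790 TPM) were high in both media, while microglia markers summed to at most 2.85 TPM, endothelial markers to at most 4.26 TPM and fibroblast markers to at most 0.59 TPM in proliferation and 9.11 to 10.5 TPM in differentiation libraries. In both differentiation groups 5 of the 6 fibroblast markers were under 1 TPM, so that sum came mostly from the remaining marker. Neuron markers summed to 427 to 500 TPM, of which Map2 made up 327 to 418 TPM, while Rbfox3, Stmn2, Syt1 and Snap25 lay between 0.94 and 12.05 TPM each. In such bulk RNA, a different share of a cell type and a different amount of RNA per cell cannot be told apart. Replicate 3 of the 4HBP libraries in proliferation medium stood apart from its 2 partners (mean chi-square per gene 23.8 and 21.4, against 5.34 between the partners), and the values without it are given below.

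Levels between genes were compared as TPM, which are scaled by transcript length. In proliferation control libraries, Phgdh was highest at 273 ± 34.3 TPM (SD, n = 3), followed by Psat1 at 174 ± 12.9 TPM, Shmt2 at 143 ± 9.29 TPM and Mthfd1 at 66.7 ± 4.27 TPM, with no overlap between neighbours in this order. Psph (47.5 ± 3.06 TPM), Aldh1l2 (44.7 ± 4.38 TPM), Mthfd2 (31.5 ± 10.8 TPM), Mthfd1l (19.0 ± 4.80 TPM) and Mthfd2l (15.4 ± 1.58 TPM) followed, and each overlapped the next. Shmt1, the cytosolic hydroxymethyltransferase, was lowest at 7.71 ± 2.04 TPM and below all of these. With 4HBP in the same medium, Shmt2 (298 ± 37.1 TPM) and Aldh1l2 (104 ± 21.5 TPM) each stood 1 or more places higher in the order of the means, though their libraries overlapped those of the next gene, Psat1 (247 ± 21.6 TPM) and Psph (80.1 ± 13.4 TPM). In differentiation medium the 2 groups had the same order of means, led by Phgdh (350 ± 10.4 TPM in controls, n = 2, and 319 ± 21.6 TPM with 4HBP, n = 3) and Psat1 (272 ± 0.0495 and 268 ± 6.63 TPM), and ended by Mthfd1l and Shmt1. The 10 members together summed to 780 to 879 TPM in proliferation controls and 1252 to 1530 TPM with 4HBP, and to 889 to 893 TPM and 844 to 877 TPM in the corresponding differentiation groups.

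**Figure D1:**
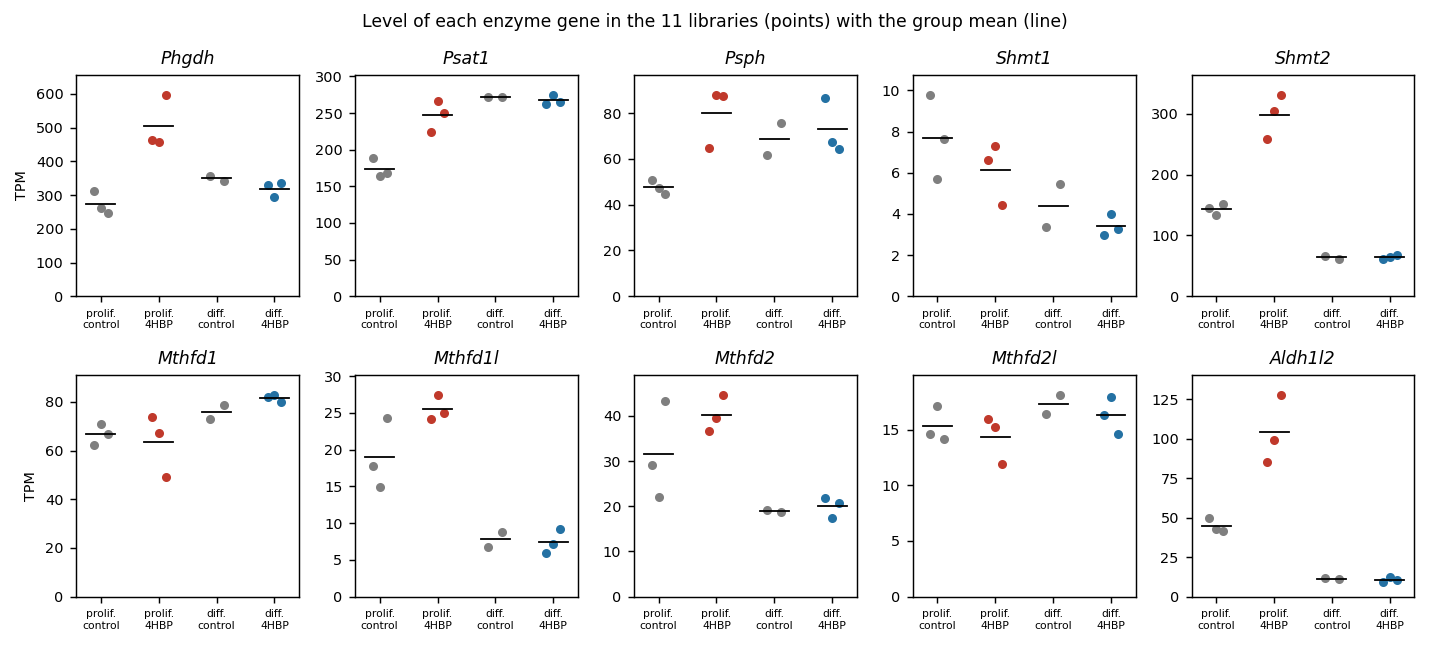
TPM of each of the 10 genes (vertical axes from 0, a scale of its own per panel) in the 4 groups; each point is 1 of the 11 libraries and each line a group mean. In proliferation medium the 4HBP libraries lie above all controls for Phgdh, Psat1, Psph, Shmt2 and Aldh1l2, and in differentiation medium the groups lie close together.

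The first comparison asked which of the enzymes changed with 4HBP in proliferation medium. With 4HBP, 6 members rose, and these covered serine synthesis (Phgdh, Psat1, Psph) and 3 of the 5 mitochondrial folate enzymes (Shmt2, Aldh1l2, Mthfd1l). The other mitochondrial enzymes Mthfd2 and Mthfd2l and both cytosolic enzymes, Shmt1 and Mthfd1, did not pass the test. Of all 14449 genes tested, 3.74% were called higher and 3.69% lower, 7.43% in all (edgeR quasi-likelihood test, Benjamini-Hochberg adjusted p under 0.05), against 6 and 0 of the 10 members, whose median log2 fold change was 0.47 beside 0.00 over all genes. The members were chosen with earlier results of these data known, so this contrast describes them and does not test them as a set.

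Phgdh encodes the first and committed enzyme of serine synthesis. It stood at 463, 456 and 598 TPM with 4HBP and at 311, 261 and 246 TPM in controls. The groups did not overlap, and the log2 fold change was 0.85 ± 0.0998 (SE, 1.81-fold, adjusted p = 0.00422, edgeR). Psat1, the aminotransferase of the second step, stood at 224, 267 and 250 TPM against 188, 164 and 169 TPM. Every 4HBP library was above every control, by a log2 fold change of 0.48 ± 0.0813 (1.39-fold, adjusted p = 0.0134). For Psph, the phosphatase that releases serine, the values were 64.7, 88.1 and 87.6 TPM against 50.7, 47.2 and 44.6 TPM. Replicate 1 was the lowest 4HBP library and still lay above the controls (log2 fold change 0.70 ± 0.102, 1.63-fold, adjusted p = 0.00830). Of these steps, the difference of Phgdh was the largest in this fit and that of Psat1 the smallest, with no test between them.

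Shmt2, the mitochondrial hydroxymethyltransferase, stood at 258, 304 and 331 TPM with 4HBP and 145, 134 and 152 TPM in controls. The lowest 4HBP library was far above the highest control, and the log2 fold change was 1.08 ± 0.0837 (2.11-fold, adjusted p = 0.000882, edgeR). Aldh1l2, which oxidizes formyl-folate to carbon dioxide in mitochondria and yields NADPH, stood at 85.5, 99.4 and 128 TPM against 49.7, 43.0 and 41.5 TPM. It had the largest fold change among the members (log2 1.16 ± 0.114, 2.24-fold, adjusted p = 0.00237), with replicate 3 the highest library. Mthfd1l, which releases formate from formyl-folate in mitochondria, was at 24.1, 27.4 and 24.96 TPM against 17.8, 14.9 and 24.3 TPM, and control replicate 3 overlapped the 4HBP group in TPM. In counts, the basis of the test, the groups were apart (44.4 to 53.0 CPM against 29.8 to 38.1 CPM), and the log2 fold change was 0.46 ± 0.112 (1.38-fold, adjusted p = 0.0406). Between the counts and the TPM stands the transcript length that RSEM estimated for each library.

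The remaining 4 members overlapped between the groups. Mthfd2, the mitochondrial dehydrogenase and cyclohydrolase, was at 36.6, 39.6 and 44.7 TPM with 4HBP and 29.1, 22.0 and 43.2 TPM in controls, where replicate 3 lay far above the other two. Its log2 fold change was 0.30, with an interval of 2 standard errors from -0.10 to 0.69 (adjusted p = 0.393, edgeR). Without control replicate 3 it was 0.58 (adjusted p = 0.0385). For Mthfd2l, the second enzyme of that step, the values were 16.0, 15.2 and 11.95 TPM against 14.7, 17.2 and 14.2 TPM, with a log2 fold change of 0.01 (interval -0.23 to 0.24). Mthfd1, the trifunctional cytosolic enzyme, stood at 73.7, 67.2 and 49.2 TPM against 62.3, 70.8 and 67.0 TPM, a log2 fold change of -0.12 (interval -0.31 to 0.07, adjusted p = 0.475). Shmt1 stood at 6.63, 7.28 and 4.42 TPM against 9.79, 5.71 and 7.63 TPM, a log2 fold change of -0.09 (interval -0.45 to 0.28, adjusted p = 0.813), and it had the lowest counts of the members, at 180 to 271 per library. In both cytosolic genes the lowest 4HBP library was replicate 3.

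The groups did not overlap in normalized log2 CPM for the same 6 members, all higher with 4HBP, while 16.2% of all genes were apart and higher and 15.1% apart and lower. All 6 calls held without replicate 3 of the 4HBP libraries, with log2 fold changes of 0.77 for Phgdh, 0.51 for Psat1, 0.67 for Psph, 1.04 for Shmt2, 0.54 for Mthfd1l and 1.03 for Aldh1l2. Leaving out any 1 of the 6 libraries kept Phgdh, Shmt2 and Aldh1l2. Psph was lost without control replicate 1 (adjusted p = 0.0525), and Psat1 without 4HBP replicate 2 (0.0526), control replicate 1 (0.0600) or control replicate 2 (0.0785). Mthfd1l was lost without 4HBP replicate 1 (adjusted p = 0.0889), 4HBP replicate 2 (0.125), control replicate 1 (0.144) or control replicate 2 (0.163). At an unadjusted p under 0.05, edgeR gave the same 6 members, beside 25.1% of all genes. With limma on log2(CPM+1), none of the 10 passed an adjusted p of 0.05 and Shmt2 came nearest (adjusted p = 0.0509), while 6 had an unadjusted p under 0.05, beside 14.7% of 27295 genes. With limma at an unadjusted p under 0.05 together with a log2 fold change beyond 0.58 either way, 4 members were higher (Aldh1l2, Shmt2, Phgdh and Psph) and none lower, beside 1.13% and 0.989% of genes.

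**Figure D2:**
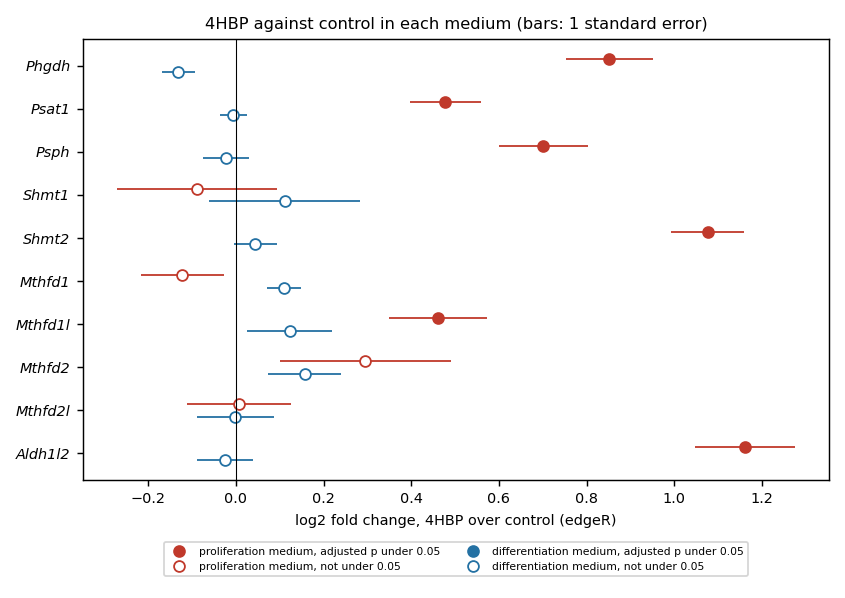
Log2 fold change of 4HBP over control (horizontal axis, edgeR) for each gene in proliferation medium (red, 6 libraries) and differentiation medium (blue, 5 libraries); bars are 1 standard error and filled points have an adjusted p under 0.05. The 6 filled points lie between 0.46 and 1.16 and belong to proliferation medium, and all points of differentiation medium lie between -0.13 and 0.16.

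In differentiation medium, none of the 10 members passed the test with 4HBP, and their fold changes were small. Of 15484 genes tested, 1.26% were called higher and 1.3% lower, 2.56% in all (edgeR), and the members' median log2 fold change was 0.02 beside 0.00 over all genes. At an unadjusted p under 0.05, 1 member was higher and 1 lower, beside 15.9% of all genes, with the same counts by DESeq2 and by limma on log2(CPM+1). Phgdh stood at 329, 295 and 335 TPM with 4HBP and 358 and 343 TPM in controls, the 4HBP libraries being lower throughout. Its log2 fold change was -0.13 ± 0.0375 (adjusted p = 0.0850, edgeR), and without 4HBP replicate 1 it was -0.16 (adjusted p = 0.0469). Mthfd1 stood at 82.2, 82.8 and 79.8 TPM against 73.0 and 78.5 TPM, the 4HBP libraries being higher throughout (log2 fold change 0.11 ± 0.0386, adjusted p = 0.166). Groups apart in normalized log2 CPM were common here, at 17.5% of 15401 genes higher and 15.5% lower.

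For the other 8 members the groups overlapped in TPM. Psat1 lay between 262 and 275 TPM with 4HBP and at 272 and 272 TPM in controls, and the interval of its log2 fold change ran from -0.07 to 0.06. For Shmt2 the values were 60.7, 64.8 and 67.0 TPM against 66.9 and 61.9 TPM (interval -0.05 to 0.14), and for Aldh1l2 9.48, 12.4 and 10.5 TPM against 11.5 and 10.8 TPM (interval -0.15 to 0.10). These intervals exclude differences of the size seen for the same genes in proliferation medium. Psph (64.4 to 86.6 against 61.8 and 75.9 TPM), Mthfd1l (5.98 to 9.24 against 6.71 and 8.82 TPM), Mthfd2 (17.3 to 21.8 against 19.1 and 18.6 TPM) and Mthfd2l (14.6 to 18.0 against 16.4 and 18.1 TPM) had log2 fold changes between -0.02 and 0.16. Shmt1 was near the limit of precision, at 79 to 96 counts against 90 and 76 counts, and its interval from -0.23 to 0.46 was the widest.

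The difference between the effects of 4HBP in the media was tested directly in 1 fit of all 11 libraries. It was larger in proliferation medium for 5 members, Aldh1l2 (difference of log2 fold changes 1.18 ± 0.149, adjusted p = 0.00185, edgeR), Shmt2 (1.02 ± 0.103, adjusted p = 0.000543), Phgdh (0.98 ± 0.120, adjusted p = 0.00185), Psph (0.72 ± 0.132, adjusted p = 0.0110) and Psat1 (0.48 ± 0.0919, adjusted p = 0.0136). Over all 15920 genes, 2.01% had a larger and 2.48% a smaller effect in proliferation medium, 4.49% in all. For Mthfd1l the difference was 0.33, with an interval from 0.01 to 0.65 (adjusted p = 0.280), so that its call in 1 medium alone was not shown to be specific to it. Mthfd1 had a difference of -0.24 (adjusted p = 0.276), Shmt1 of -0.21 (0.728), Mthfd2 of 0.13 (0.844) and Mthfd2l of 0.00 (1.00). Without 1 of the differentiation controls, Psat1 (adjusted p = 0.0869 without replicate 1 and 0.0953 without replicate 2) and Psph (0.0685 and 0.0602) were lost, and the other 3 calls held.

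The mitochondrial and cytosolic isoforms were then set side by side within each library, as the ratio of their TPM. In proliferation medium, Shmt2 was 38.9, 41.8 and 75.0 times Shmt1 with 4HBP and 14.8, 23.4 and 19.9 times Shmt1 in controls. Every 4HBP library had the higher ratio, with a difference of 1.38 in the mean log2 ratio (5.63 ± 0.519 against 4.25 ± 0.334, SD, n = 3 each, exact two-sided permutation test p = 0.1, the smallest that 3 against 3 allows, and 0.4 adjusted over 4 comparisons). The RSEM length of Shmt1 also varied, from 1859 bases in control replicate 1, with the lowest ratio, to 2858 bases in 4HBP replicate 3, with the highest. In counts, Shmt2 was 33.6, 36.3 and 56.3 times Shmt1 with 4HBP and 17.3, 21.0 and 16.5 times in controls, and the groups were apart there too (difference 1.17). The ratio of Mthfd1l to Mthfd1, the mitochondrial and cytosolic formate enzymes, was 0.327, 0.408 and 0.507 with 4HBP and 0.285, 0.211 and 0.363 in controls. These groups overlapped in TPM (difference of the mean log2 ratio 0.54, exact permutation p = 0.2, adjusted 0.4). In counts they did not, at 0.434, 0.511 and 0.504 against 0.319, 0.293 and 0.349. RSEM gave Mthfd1l a mean transcript length of 2271 bases in control replicate 3, against 2804 and 2835 bases in the other controls. In differentiation medium Shmt2 was 20.3, 16.3 and 20.6 times Shmt1 with 4HBP and 20.0 and 11.3 times in controls (difference 0.33), and the Mthfd1l to Mthfd1 ratio was 0.0728, 0.0862 and 0.116 against 0.0919 and 0.112 (difference -0.18), each with an exact permutation p of 0.5. In counts these differences were -0.07 and 0.01, opposite in direction to those in TPM. No such comparison could reach 0.05 at these numbers. The low ratio of 11.3 came from control replicate 2, in which RSEM gave Shmt1 a mean transcript length of 1186 bases, against 1927 to 2358 bases in the other differentiation libraries.

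**Figure D3:**
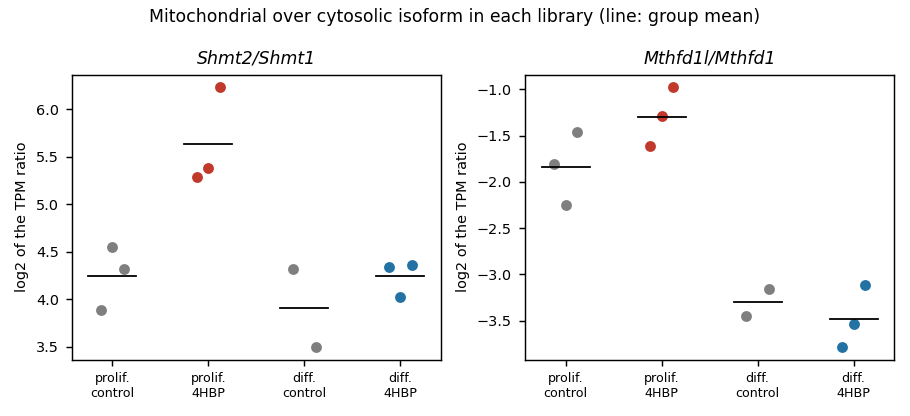
Log2 of the TPM ratio of Shmt2 to Shmt1 (left) and Mthfd1l to Mthfd1 (right) in each library of the 4 groups, with the group mean as a line. In proliferation medium every 4HBP library is above every control for Shmt2 to Shmt1, while the groups overlap for Mthfd1l to Mthfd1.

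The media themselves were compared in control cultures and, separately, in 4HBP cultures, in the fit of all 11 libraries. These contrasts share libraries with those above and are set beside them only as values. In control cultures the 5 mitochondrial folate enzymes and Shmt1 were lower in differentiation medium, while Phgdh, Psat1 and Mthfd1 were higher. This count has to be read against a medium effect that reached most genes: 30.8% of all genes were called higher and 30.6% lower, and 61.4% in all, against 9 of the 10 members.

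Aldh1l2 had the largest difference, from 166 to 186 CPM in proliferation controls to 33.8 and 36.3 CPM in differentiation controls (log2 fold change -2.40 ± 0.121, 5.27-fold lower, adjusted p = 4.8e-09, edgeR). Shmt2 went from 197 to 214 CPM to 71.3 and 74.9 CPM (-1.58 ± 0.0811, adjusted p = 5.7e-09), and Mthfd1l from 29.8 to 38.1 CPM to 12.1 and 12.5 CPM (-1.56 ± 0.124, adjusted p = 2.9e-07). Shmt1 (-1.73 ± 0.208), Mthfd2 (-1.24 ± 0.205) and Mthfd2l (-0.43 ± 0.112, adjusted p = 0.00477) were also lower. The fall of Mthfd2l was in counts only, since its mean TPM was 1.13 times as high in differentiation controls, and without differentiation control replicate 1 its adjusted p was 0.0501.

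The serine synthesis genes behaved otherwise. Phgdh was 202 to 244 CPM in proliferation controls and 308 and 323 CPM in differentiation controls (log2 fold change 0.43 ± 0.0895, adjusted p = 0.00111, edgeR). Psat1 rose from 267 to 295 CPM to 352 and 354 CPM (0.26 ± 0.0684, adjusted p = 0.00510). Psph was at 51.9 to 57.2 CPM against 53.6 and 54.1 CPM, with an interval from -0.30 to 0.09 (adjusted p = 0.375), although its mean TPM was 1.45 times as high. Mthfd1 rose by 0.22 ± 0.0863 (adjusted p = 0.0447), a call that was lost without proliferation control replicate 1 (0.0809) or 2 (0.115), or differentiation control replicate 1 (0.113) or 2 (0.212). Transcript lengths moved with the medium, for Phgdh from 1206 to 1370 bases in proliferation libraries to 1608 to 1752 bases in differentiation libraries, and for Mthfd1 from 2085 to 2640 bases to 3030 to 3159 bases, and their part in the levels was not tested.

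With 4HBP in both media, the serine synthesis genes were lower in counts in differentiation medium, whereas in controls Phgdh and Psat1 were higher and Psph was not called. The log2 fold change was -0.55 ± 0.0807 for Phgdh (adjusted p = 5.0e-05, edgeR), -0.82 ± 0.0882 for Psph (2.9e-06) and -0.22 ± 0.0614 for Psat1 (0.00726, lost without proliferation 4HBP replicate 2, 0.0627). For Psat1 the mean TPM was 1.08 times as high, opposite to the counts. For Psph the groups overlapped in TPM, at 64.4 to 86.6 TPM in differentiation and 64.7 to 88.1 TPM in proliferation medium. Aldh1l2 (-3.58 ± 0.107, 11.9-fold lower) and Shmt2 (-2.61 ± 0.0722, 6.09-fold lower) had the largest differences, and Mthfd1l (-1.89), Shmt1 (-1.52), Mthfd2 (-1.36) and Mthfd2l (-0.43) were also lower. The fall of Mthfd2l was in counts only here too, since its mean TPM was 1.13 times as high in differentiation medium. Mthfd1 was higher (0.46 ± 0.0778, adjusted p = 0.000177). In these cultures 33.3% of all genes were called higher and 33.8% lower, 67.2% in all, beside 1 and 9 of the members. All 12 proliferation genes listed (such as Mki67, log2 fold change -3.20) were lower in differentiation than in proliferation controls, and their part in the difference of the folate enzymes was not tested.

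**Figure D4:**
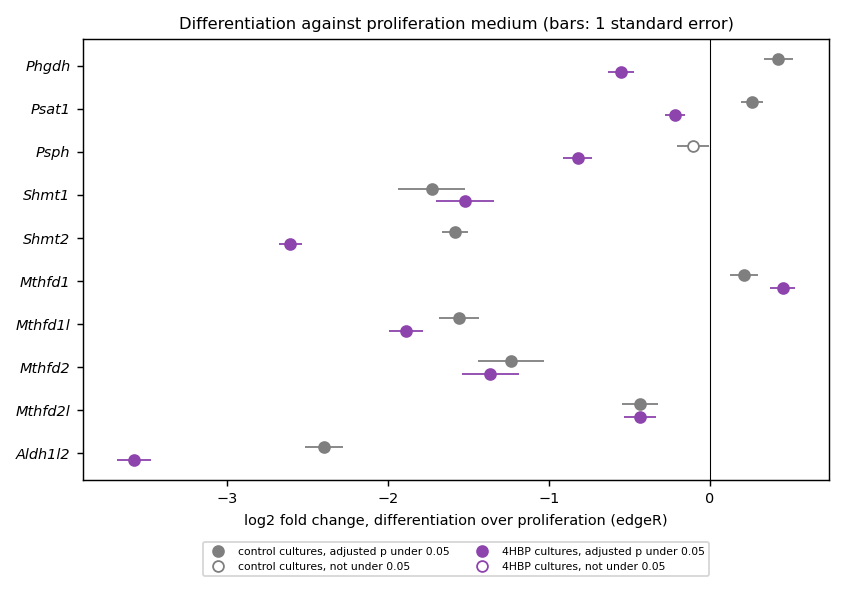
Log2 fold change of differentiation over proliferation medium (horizontal axis, edgeR) for each gene in control cultures (grey) and 4HBP cultures (purple); bars are 1 standard error, and filled points have an adjusted p under 0.05. Phgdh and Psat1 lie above 0 in control cultures and below 0 in 4HBP cultures, while Aldh1l2 lies furthest below 0 in both, at -2.40 and -3.58.

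The genes around these enzymes were read from lists for each step of the pathway, in proliferation medium with 4HBP. Of 6 tested genes of folate uptake and storage, 2 rose, Slc19a1, the reduced folate carrier (log2 fold change 0.60 ± 0.121, adjusted p = 0.0228, edgeR), and Fpgs, which adds the glutamate tail that holds folate in the cell (0.55 ± 0.129, adjusted p = 0.0374). Of 9 enzymes that use folate, Atic of purine synthesis rose (0.53 ± 0.0900, adjusted p = 0.0132), from 27.6 to 34.1 TPM in controls to 43.0 to 46.8 TPM. Cth, which makes cysteine from cystathionine, rose the most of any gene in the metabolic lists, from 0.780 to 1.09 TPM to 2.37 to 6.42 TPM (2.35 ± 0.342, adjusted p = 0.00825). Cbs, the step before it, fell (-0.33 ± 0.0779, adjusted p = 0.0374), and these were the called genes among 5 of the methionine cycle and transsulfuration. Amt of the glycine cleavage system fell (-0.34 ± 0.0650, adjusted p = 0.0188), the only call among its 4 genes. Serinc3, a serine incorporator, rose (0.46 ± 0.0944, adjusted p = 0.0253), the only call among 10 genes of serine use and transport. The medians of these lists lay between -0.10 and 0.07, beside 0.47 for the 10 enzymes. These calls rested on single libraries more than those of the members. Without control replicate 2 none of the 7 genes named here was called (Cth, adjusted p = 0.0529), and without control replicate 1 (0.0476) or 4HBP replicate 2 (0.0316) only Cth was.

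In differentiation medium the same lists held 2 called genes, Gldc of glycine cleavage (-0.16 ± 0.0340, adjusted p = 0.0214, edgeR) and Sfxn1, a mitochondrial serine transporter (0.22 ± 0.0533, adjusted p = 0.0392). The effects on Cth (difference 2.45, adjusted p = 0.00811), Serinc3 (0.53, adjusted p = 0.0206) and Amt (-0.40, adjusted p = 0.0165) differed between the media in the fit of all 11 libraries.

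Between the media in control cultures, the neighbouring lists moved in both directions, and their counts stand beside 30.8% of all genes called higher and 30.6% lower. Of 8 folate uptake and storage genes, 3 were higher in differentiation medium and 2 lower, among them the folate receptor Folr2 (log2 fold change 1.98), the mitochondrial folate carrier Slc25a32 (0.45) and Ggh, which removes glutamates from folate (-0.19). In TPM Ggh was higher instead, at 30.7 and 33.3 TPM in differentiation controls against 26.3 to 28.6 TPM. The receptor Folr1 was at 0 TPM in each proliferation control and at 3.14 and 4.38 TPM in differentiation controls. No folate-using enzyme was higher and 5 of 9 were lower, most of all Aldh1l1, the cytosolic counterpart of Aldh1l2 and also an astrocyte marker (-1.59 ± 0.0803, adjusted p = 5.0e-09, edgeR), and Tyms, the thymidylate synthase (-0.86). In the glycine cleavage system Gldc was higher (1.17) and Amt (-0.46), Dld (-0.45) and Gcsh (-0.42) were lower in counts, while the control groups of these 3 overlapped in TPM. Of 5 methionine cycle and transsulfuration genes, 4 were higher, with Cth (2.00) and Mat2a (0.97) first, and Ahcy was lower (-1.18). Of 10 genes of serine use and transport, 6 were higher, with Sdsl (2.78), Serinc5 (1.91) and Sfxn2 (1.01) first, and Sfxn3 (-0.84) and Sfxn1 (-0.82) were lower. Of the ATF4 list, 6 of 12 were lower, with Nupr1 (-3.30), Trib3 (-1.87) and Chac1 (-1.76) first, and Atf5 was higher (1.37). NSC markers were lower for 7 of 8 and higher for 1. Of 8 oligodendrocyte lineage markers 5 were higher and 0 lower. Astrocyte markers moved both ways, with 5 of 8 higher and 3 lower, as did neuron markers, with 4 of 8 higher and 2 lower. The part of these cell types in the members' levels was not tested.

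Of a list of 12 genes, Atf4 and known targets of its protein, 7 were called higher with 4HBP in proliferation medium and none lower (edgeR). Their median log2 fold change was 0.91, and 9 of the 12 lay above 0. DESeq2 called 8 higher and 1 lower, and limma called none, with 7 at an unadjusted p under 0.05, beside 14.7% of 27295 genes. Of all genes tested, edgeR called 3.74% higher and 3.69% lower. This list too was chosen with earlier results of these data known, so its counts are a description. Nupr1 (2.58 ± 0.247, adjusted p = 0.00230, edgeR), Atf5 (1.89 ± 0.141, adjusted p = 0.000882) and Trib3 (1.79 ± 0.380, adjusted p = 0.0270), all stress response regulators, had the largest changes. Asns, the asparagine synthetase, rose from 68.5 to 88.7 TPM to 169 to 241 TPM (1.37 ± 0.134, adjusted p = 0.00237), and Atf4 itself from 212 to 331 TPM to 403 to 438 TPM (0.60 ± 0.147, adjusted p = 0.0414). The count was 6 without 4HBP replicate 3, and 3 (Asns, Atf5 and Nupr1) without 4HBP replicate 2, control replicate 1 or control replicate 2. Atf4 lost its call in those 3 fits (adjusted p = 0.112, 0.160 and 0.144) and without 4HBP replicate 1 (0.0884), and Trib3 in the same 3 (0.0568, 0.119 and 0.120). In differentiation medium 1 of the 12 was called, Atf5, which was lower (-0.23 ± 0.0492, adjusted p = 0.0206), and Asns (0.06) and Atf4 (0.11, adjusted p = 0.162) were not. The difference between the media was called for Asns (1.2996, adjusted p = 0.00250) and not for Atf4 (0.48, adjusted p = 0.165).

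Markers of dividing cells lay lower with 4HBP without passing the test, and 4 of 8 astrocyte markers fell. None of 12 proliferation genes was called by edgeR in proliferation medium. At an unadjusted p under 0.05, 6 were lower, beside 25.1% of all genes in either direction. DESeq2 called 1 lower and limma none, and all 12 had a fold change below 0 (median -0.46). The largest differences were those of Mcm5 (-0.70), which takes part in DNA replication, and Aurkb (-0.65), a mitotic kinase, and that of Mki67 was -0.53 (adjusted p = 0.184). They summed to 571 to 609 TPM in controls and 319 to 541 TPM with 4HBP. Of the astrocyte markers, the falls were largest for Gja1 (-0.85), Aldoc (-0.70) and Gfap (-0.68), and the 8 markers' sum was 3430 to 4021 TPM in controls and 2559 to 3146 TPM with 4HBP. Their count of calls was 0 without control replicate 1 or 2, 2 without 4HBP replicate 2 and 6 without 4HBP replicate 3. Phgdh, which astrocytes are known to express, was higher with 4HBP in the same libraries, and no relation between it and these markers was tested. No neuron, NSC or oligodendrocyte lineage marker was called by edgeR (0 of 8 each). At an unadjusted p under 0.05, 0, 2 and 3 of them were lower, beside the same 25.1% of all genes. DESeq2 called 0, 1 and 1 lower. The largest differences there were Hes5 (-0.71) and Fabp7 (-0.35) of the NSC list, Snap25 (-0.44) and Syn1 (-0.23) of the neuron list, and Mog (-1.75, at most 0.58 TPM in either group) and Olig1 (-0.42) of the oligodendrocyte list. The part of cell composition and of cell division in the members' levels was not tested.

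**Figure D5:**
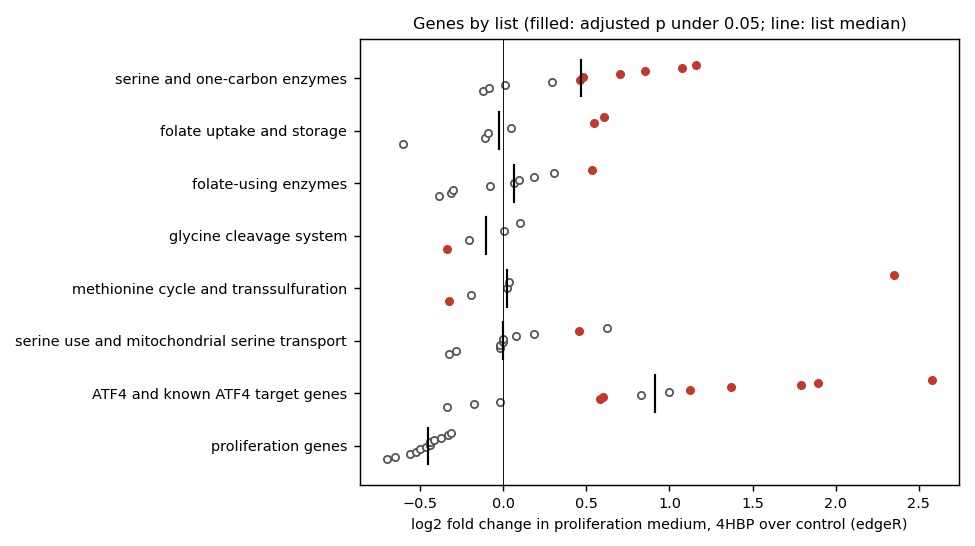
Log2 fold change of 4HBP over control in proliferation medium (horizontal axis, edgeR) for each tested gene of the 10 enzymes and of 7 other lists; each point is a gene, filled where the adjusted p is under 0.05, and the line is the median of the list. The medians are 0.47 for the enzymes, 0.91 for ATF4 and its known targets and -0.46 for proliferation genes, and those of the other lists lie between -0.10 and 0.07.

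Across the 6 proliferation libraries, the genes whose normalized log2 CPM was most like that of Shmt2 were Adm2, Washc1 and Fbln5 (Pearson r of 0.999, 0.998 and 0.998). For Aldh1l2 they were Chtf8, Top1mt and Klhl42 (0.999, 0.997 and 0.997), and for Phgdh they were Map3k15, Mfap1a and another member, Aldh1l2 (0.996, 0.996 and 0.995). For Psat1 they were Babam2, Fxr1 and Mrps17, and for Psph Fam13a, Dus2 and Aldh3a2. For Mthfd1l they were Eif3j2, Rsl1d1 and Prmt5, for Mthfd2 Mrps35, Esyt1 and Chrm3, and for Mthfd2l Rnasek, Gjc3 and Rbm15b. For Mthfd1 they were Sod2, Rpl5 and Slc13a3, and for Shmt1 Nrn1, P3h4 and Psmd11. All of these r lay between 0.984 and 0.999. They describe 6 libraries of 2 groups, picked as the highest of 14449 genes, and the difference between the groups is part of each of them.

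The members lie on 7 chromosomes of the GRCm38 build, with Shmt2, Mthfd1l and Aldh1l2 on chromosome 10 and Psph and Mthfd2l on chromosome 5, none of them next to each other. All are annotated as protein-coding. Phgdh spans chr3:98313170-98339990 on the minus strand, Psat1 chr19:15904678-15947337 (minus), Psph chr5:129765558-129787449 (minus), Shmt2 chr10:127517123-127522444 (minus) and Aldh1l2 chr10:83487450-83534140 (minus), with Shmt1 at chr11:60788104-60811718 (minus). Mthfd1 spans chr12:76255298-76319803 (plus), Mthfd1l chr10:3973118-4167081 (plus), Mthfd2 chr6:83305691-83325908 (minus) and Mthfd2l chr5:90931117-91021368 (plus). Counts that were not whole, a sign of reads shared with another gene, occurred for Mthfd2l in all 11 libraries and for Phgdh and Aldh1l2 in 6 of 11, so the levels of these 3 carry that uncertainty. The pseudogene Phgdh-ps1 was listed at 0 counts in every library.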

How the data were processed

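RNA was sequenced in 11 libraries from cultured mouse hippocampal NSCs, grouped by the sample labels into 4 groups. The authors removed adapters with cutadapt and quantified the read pairs with RSEM 1.3.0 and Bowtie2 2.2.9 on mm10 (GRCm38) with GENCODE annotation, from a stranded mRNA kit. The deposited expected counts are unnormalized estimates per gene, of which 18.6% of those above 0 were not whole numbers, and were rounded for the tests. The deposited TPM are the authors' values scaled for transcript length and depth, used for levels. The deposited FPKM, the authors' counts scaled for length and depth by RSEM, were not used. Symbols came from a GENCODE annotation of the same build and matched 53620 of 53801 identifiers.

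Counts were filtered with filterByExpr, scaled by TMM and tested with edgeR 4.0.16 (quasi-likelihood, R 4.3.3) within each medium, and over all 11 libraries for the difference between the effects and for the media, with Benjamini-Hochberg adjustment over all genes tested. CPM are counts scaled to the library total, groups were called apart on TMM-scaled log2 CPM, and intervals are 2 standard errors either way. The count test departs from the limma test on log2(CPM+1) of the study's methods, which was run as an alternative with limma 3.58.1, as was DESeq2 1.42.0. Isoform ratios used an exact permutation test. On simulated counts, 84% (14449 genes, proliferation medium) and 88% (15484 genes, differentiation medium) of 200 genes changed 2-fold were recovered, and 76.5% for the media in controls (15920 genes). Of the genes called in these simulations, 6.67%, 4.35% and 4.375% in turn had not been changed.

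Named genes are all 10 members, Atf4, Asns and Mki67, and, per list, up to 3 higher and 3 lower called genes with the largest changes. The values of 1 gene that this rule names are not reported here. The members and lists were chosen with earlier results of these data known. Of 2 gene models with the symbol Ddit3, 1 was kept in its list. No duplicated library was found, library totals were close to each other, and the standard errors also carry the spread between replicates.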

Additional observations from a re-analysis of the deposited data

Results flagged for a closer look

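The effect of 4HBP differed between the media for 5 of the 10 enzymes by the interaction term in edgeR over all 11 libraries, and these are the results singled out. The difference of the log2 fold changes, proliferation minus differentiation medium, was 0.98 for Phgdh, 0.48 for Psat1, 0.72 for Psph, 1.02 for Shmt2 and 1.18 for Aldh1l2. In each of the 5 genes every 4HBP library was above every control in proliferation medium, while in differentiation medium the groups overlapped in TPM for all but Phgdh, whose 4HBP libraries were lower. The spread between replicates also differed between the media, with a biological coefficient of variation of 0.117 in proliferation medium (6 libraries) and 0.0368 in differentiation medium (5 libraries).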

How the results depend on the processing

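The called enzymes numbered 6 in proliferation medium, 0 in differentiation medium and 5 for the difference between the media. In proliferation medium, limma with a pseudocount of 1 or 0.1 called 0 and 0 of them, and over all genes 67 and 56, against 1074 by edgeR, 1623 by DESeq2, 534 with the replicate number as a block and 2668 in the fit of all 11 libraries. In differentiation medium, Phgdh alone was called (1 enzyme) with no filter on low counts and with the replicate block, and the genes called overall numbered 396, against 0 and 147 by limma, 778 with no filter, 745 with the block and 0 in the fit of all 11 libraries. For the difference, 3 enzymes were called by limma with a pseudocount of 0.1, 4 with a pseudocount of 1 (Psph lost, adjusted p = 0.0640) and 3 with the block, and overall 715 genes, against 1078 by DESeq2, 264 and 157 by limma, 1616 with no filter and 156 with the block.

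The replicate numbers did not pair the samples (correlations of deviations -0.0612 to 0.0180). With them as a block, Mthfd1l lost its call in proliferation medium (adjusted p = 0.0959), as did Psat1 and Psph for the difference. Fold changes near 0 turned: Mthfd2l in proliferation medium to -0.00045 with the block; Mthfd2l in differentiation medium to 0.00084, 0.000595, 0.0024, 0.016 and 0.0060 with DESeq2 size factors, DESeq2, no filter, the block and the fit of all 11 libraries; Psat1 there to 0.0016 in that fit; and Mthfd2l for the difference to -0.011, -0.011, -0.020 and -0.010 with DESeq2 size factors, DESeq2, the block and voom.

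With 1 library left out, called enzymes ranged from 3 to 7 in proliferation medium (107 to 1429 genes), 0 to 1 in differentiation medium (77 to 288) and 3 to 5 for the difference (117 to 1100). Log2 fold changes ranged from -0.063 to 0.12 for Mthfd2l and -0.21 to 0.080 for Shmt1 in proliferation medium, from -0.014 to 0.0060 for Psat1, -0.053 to 0.031 for Mthfd2l, -0.077 to 0.023 for Aldh1l2, -0.065 to 0.018 for Psph and -0.044 to 0.28 for Shmt1 in differentiation medium, and from -0.069 to 0.11 for Mthfd2l and -0.066 to 0.42 for Mthfd2 in the difference. The Shmt2 to Shmt1 log2 ratio ranged from 1.08 to 1.56 and from -0.08 to 0.74 in the media, and the Mthfd1l to Mthfd1 ratio from 0.34 to 0.73 and from -0.36 to -0.02. Causes were not tested.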
